A study of Mus musculus with 33 samples.

Results

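Ascl3, Foxi1, Itpr3, Trpm5, Chat, Cftr, Avil and Plcb2 are genes of the microvillous and brush cells, sparse non-neuronal cells of the nasal lining. These 8 genes were taken by symbol from the 2 deposited expression tables. All 8 were among the 14613 genes listed for whole main olfactory epithelium (MOE), and 6 of them were among the 14744 listed with values for sorted mature olfactory sensory neurons (mOSN). Ascl3 and Chat were not listed for mOSN. The mice carried no functional copy (Dnmt3a -/-, KO), 1 copy (Dnmt3a +/-, Het) or both copies (Dnmt3a +/+, WT) of Dnmt3a, the gene of an enzyme that places new methyl groups on DNA, and all were 3 weeks old. MOE libraries came from KO, Het and WT mice exposed for 60 min to odor (equal parts of amyl acetate, acetophenone and octanal, 80 µL on paper) or to water, after 10 min in a clean cage. Odor and water mice were held in separate cages, so cage and treatment cannot be told apart. There was 1 MOE library per genotype and treatment, all made with the NuGEN kit from 100 ng of RNA. For mOSN the table gives 1 pooled value per genotype from 2 libraries each. Both KO mOSN libraries were made with NuGEN from 100 ng and both WT libraries with ScriptSeq from 200 ng, while Het had 1 of each, so kit and genotype cannot be told apart between KO and WT. The labels give neither the animals per library nor the deleted stretch of Dnmt3a.

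Sparse cells with apical microvilli, of more than one kind, lie among the supporting cells and neurons of the olfactory lining. One kind resembles the ionocytes of the airway: Ascl3, a basic helix-loop-helix transcription factor, marks its lineage, Foxi1, a forkhead factor, drives ionocyte genes elsewhere in the airway, and Cftr is a chloride channel. Another resembles brush or tuft cells and taste cells: Plcb2, a phospholipase C, makes inositol trisphosphate, Itpr3 is the receptor that releases calcium in reply, and Trpm5 is the cation channel that calcium opens. Itpr3 is used by microvillous cells more widely. Chat makes acetylcholine, which the brush-like cells can release, and Avil (advillin) bundles actin in their microvilli and also occurs in peripheral sensory neurons.

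The upstream stretches of 4 of the genes are shown because these genes lead the comparisons below, 3 higher and 1 lower with odor. They are RefSeq sequences on GRCm38.p6, a later build than the authors' mm9, and run 250 bases up to the gene start used in that table. The Ascl3 stretch lies at chr7:109731733-109731982 (minus strand) and its capitals mark the forkhead core TGTTTA on either strand. The Foxi1 stretch lies at chr11:34208090-34208339 (minus strand) and its capitals mark the E-box CANNTG, the kind of site that basic helix-loop-helix factors bind. The Itpr3 stretch lies at chr17:27057054-27057303 (plus strand) and its capitals mark the octamer ATGCAAAT, the site of POU factors, read on the opposite strand. The Chat stretch lies at chr14:32465910-32466159 (minus strand) and its capitals mark the E-box form CAGCTG.
Ascl3: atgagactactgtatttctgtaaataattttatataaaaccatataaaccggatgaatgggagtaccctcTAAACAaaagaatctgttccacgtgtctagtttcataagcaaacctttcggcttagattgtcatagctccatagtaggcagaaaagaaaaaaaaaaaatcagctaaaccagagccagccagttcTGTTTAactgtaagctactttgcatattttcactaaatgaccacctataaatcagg
Foxi1: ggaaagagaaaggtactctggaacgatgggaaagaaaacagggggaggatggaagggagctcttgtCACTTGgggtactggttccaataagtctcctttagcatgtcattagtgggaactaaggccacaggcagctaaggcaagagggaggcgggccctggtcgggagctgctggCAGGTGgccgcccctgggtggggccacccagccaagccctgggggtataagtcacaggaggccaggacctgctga
Itpr3: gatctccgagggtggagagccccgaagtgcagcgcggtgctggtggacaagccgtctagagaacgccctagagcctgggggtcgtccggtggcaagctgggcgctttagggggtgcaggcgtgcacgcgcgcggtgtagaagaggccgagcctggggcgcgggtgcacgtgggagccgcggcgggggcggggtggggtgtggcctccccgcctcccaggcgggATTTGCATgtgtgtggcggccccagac
Chat: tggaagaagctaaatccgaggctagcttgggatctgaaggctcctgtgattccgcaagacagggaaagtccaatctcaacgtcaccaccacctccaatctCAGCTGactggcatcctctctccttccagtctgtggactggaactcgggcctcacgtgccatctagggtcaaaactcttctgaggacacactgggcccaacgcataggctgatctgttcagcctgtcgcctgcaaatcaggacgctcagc

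The 4 stretches differ in base composition. Guanine and cytosine made up 72.0% of the Itpr3 stretch, 58.8% of Foxi1, 54.8% of Chat and 34.8% of Ascl3, and the Itpr3 stretch held 25 CG pairs against 3 in Ascl3. The motifs were searched on both strands in the 300-base windows (250 before and 50 after the start) of all 8 genes and of all 32851 starts in the table. TGTTTA was found in 1 of the 8 windows, that of Ascl3, where its matches begin 180 and 56 bases before the start, and in 13.4% of all windows. Its longer form TGTTTAC was in none of the 8 and in 3.65% of all windows. CANNTG was in 6 of the 8 and in 72.3% of all windows. CAGCTG, which is contained in CANNTG, was in the Chat window alone among the 8 and in 16.3% of all windows. ATGCAAAT was in the Itpr3 window alone among the 8, 27 bases before the start, and in 1.74% of all windows, while its core TGCAAA was in 4 of the 8 and in 15.5%. These matches describe letters only.

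Recovered reads ranged from 9410063 to 17639584 per MOE library, with a median of 222 to 396 per gene. Values are on the authors' RPKM scale, reads scaled per gene length and per library. The library factors did not follow the recovered reads exactly. The length behind each value could be read back for MOE, and it is not the length of a single mRNA: it came to 706 bases for Ascl3 and 22474 for Trpm5, or 97.2% of that gene's whole span in RefSeq. For 10.0% of 13564 matched genes it was more than 1.05 times the span. The order of levels between genes is therefore not read as an order of abundance. Ratios between genes are compared only across libraries, and sums over a list and its highest genes are those of the deposited values. Dnmt3a itself measured 48.3 to 56.1 in KO, 50.3 to 66.6 in Het and 84.4 to 89.0 in WT MOE. In mOSN it was 56.2 in KO, 120 in Het and 175 in WT. Omp, the defining marker of mature olfactory neurons, stood at 7612 in KO, 10449 in Het and 16661 in WT mOSN. Reads of Itpr3, Chat and Cftr cannot be told apart from those of genes that overlap them in RefSeq (Itpr3os and Mir7677, the acetylcholine transporter gene Slc18a3, and Gm15595) unless counting used strand, which the sources used here do not give. None of these partners is listed in the MOE table.

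The first comparison asks how 60 min of odor left these genes. In whole MOE, 6 of the 8 were higher with odor than with water in all 3 genotypes: Ascl3, Foxi1, Itpr3, Trpm5, Avil and Plcb2. Such a pattern was seen in 15.6% of the 14602 genes tested. Chat went the other way in all 3 genotypes, as 11.9% of genes did, and Cftr was higher in KO and WT only. Of the fitted log2 fold changes 7 were positive and 1 negative, against 50.1% and 49.9% of all genes tested. Across the 8 genes the median log2 fold change was 0.54, against 0.00073 over all genes tested. No member passed the test over all genes (limma, two-sided, lowest adjusted p = 0.882, shared by Ascl3, Foxi1, Itpr3, Avil and Chat), in which 0.0137% of genes were called higher and 0.0% lower. Below 0.05 without adjustment, Ascl3, Foxi1 and Itpr3 were higher (3.01% of genes) and Chat lower (1.86%).

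**Figure D1:**
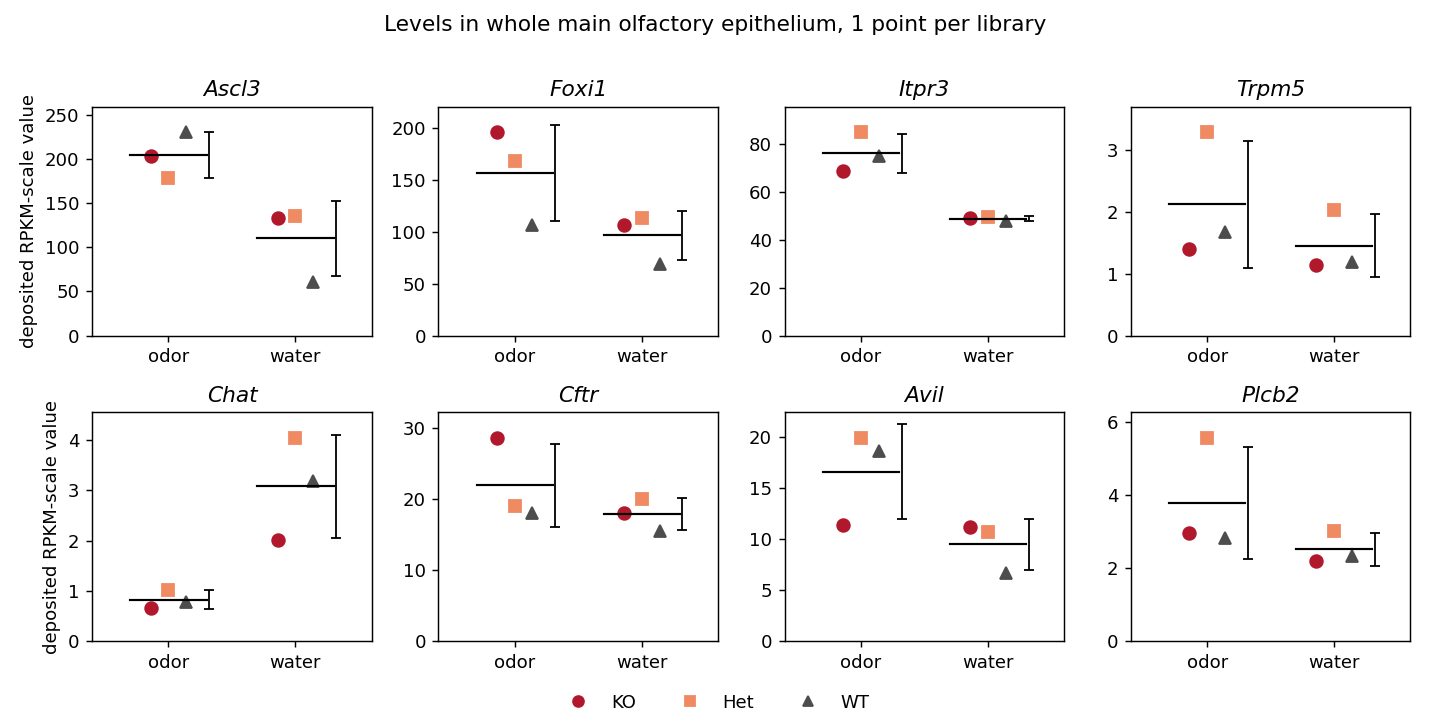
Deposited RPKM-scale values of the 8 genes in the 6 whole MOE libraries, odor left of water, with 1 point per library (KO circles, Het squares, WT triangles); lines are means over the 3 genotypes and bars their SD. All odor points lie above all water points for Ascl3, Itpr3 and Avil, and below them for Chat.

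Ascl3, the lineage factor, was at 203 in KO, 178 in Het and 230.1 in WT with odor, against 133 in KO, 136 in Het and 60.6 in WT with water. All 3 odor libraries lay above all 3 water libraries, a separation found in 7.77% of genes. The WT water library was far below the other 5. Its mean was 204 ± 25.9 with odor and 109.9 ± 42.8 with water (SD over the 3 genotypes), and the log2 fold change was 0.97 ± 0.32 (SE; limma adjusted p = 0.882). Within genotypes the odor level was 1.53 times the water level in KO (95% counting interval 1.14 to 2.06), 1.31 times in Het (1.02 to 1.69) and 3.80 times in WT (2.72 to 5.40). Without the WT pair the log2 fold change was 0.50.

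Foxi1, the forkhead factor, was at 196 in KO, 168 in Het and 106 in WT with odor, against 107 in KO, 113 in Het and 69.4 in WT with water. Each genotype was higher with odor, but the WT odor library lay below the KO and Het water libraries. The odor level was 1.83 times the water level in KO (1.54 to 2.18), 1.48 times in Het (1.28 to 1.71) and 1.53 times in WT (1.26 to 1.87). Foxi1 had the smallest p of the 8 before adjustment, and its log2 fold change was 0.68 ± 0.15 (limma adjusted p = 0.882).

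Itpr3, the calcium release receptor, was at 68.7 in KO, 85.1 in Het and 74.9 in WT with odor, against 49.3 in KO, 49.7 in Het and 47.9 in WT with water. The water libraries were nearly level, with a mean of 49.0 ± 0.94, and the odor libraries averaged 76.2 ± 8.28 (SD over 3 genotypes). Reads numbered 550 to 1027 with odor and 348 to 480 with water. All 3 odor libraries lay above all 3 water libraries, with a fitted difference of 0.63 ± 0.17 on the log2 scale (limma adjusted p = 0.882). Its closest relatives, the ubiquitous receptors Itpr1 and Itpr2, had log2 fold changes of 0.25 and 0.29. In both of them, too, all 3 odor libraries lay above all 3 water libraries, and neither passed.

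Cftr, the chloride channel, was at 28.6 in KO, 19.1 in Het and 18.0 in WT with odor, against 18.1 in KO, 20.0 in Het and 15.5 in WT with water. Only the KO odor library stood clear of the rest. The log2 fold change was 0.26 ± 0.27 (limma adjusted p = 0.893).

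The taste-like signalling genes were sparse in whole MOE. Trpm5 had 28 reads in KO, 99 in Het and 38 in WT with odor, and 20 in KO, 49 in Het and 28 in WT with water. As levels these were 1.40, 3.28 and 1.66 with odor and 1.13, 2.03 and 1.18 with water, in the same order of genotypes. The Het libraries were highest within each treatment, and the odor and water groups overlapped. For Plcb2 the levels were 2.95 in KO, 5.55 in Het and 2.83 in WT with odor, against 2.18 in KO, 3.02 in Het and 2.33 in WT with water, from 28 to 122 reads. Log2 fold changes were 0.39 ± 0.42 for Trpm5 and 0.46 ± 0.39 for Plcb2 (limma adjusted p = 0.901 and 0.884). Counting intervals of the within-genotype ratio lay above 1 in Het alone for both genes, at 1.62 (1.14 to 2.32) for Trpm5 and 1.84 (1.32 to 2.59) for Plcb2.

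Avil, the actin bundler, was at 11.3 in KO, 19.9 in Het and 18.6 in WT with odor, against 11.2 in KO, 10.7 in Het and 6.64 in WT with water. All 3 odor libraries lay above all 3 water libraries, though the lowest odor library, KO, was level with KO water (ratio 1.02, 0.71 to 1.47), while the odor level was 1.87 times the water level in Het (1.42 to 2.47) and 2.80 times in WT (1.99 to 4.00). The log2 fold change was 0.77 ± 0.36 (limma adjusted p = 0.882), and 0.45 without the WT pair.

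Chat, the acetylcholine-making enzyme, was at 0.665 in KO, 1.03 in Het and 0.778 in WT with odor, against 2.01 in KO, 4.05 in Het and 3.19 in WT with water. All 3 odor libraries lay below all 3 water libraries, as in 4.75% of genes, and each genotype was lower by at least 2-fold, as in 0.13% of genes. These values rest on 3, 7 and 4 reads with odor and 8, 22 and 17 with water, in KO, Het and WT. The odor to water ratio was 0.33 in KO (0.06 to 1.38), 0.25 in Het (0.09 to 0.62) and 0.24 in WT (0.06 to 0.75), so the KO interval includes 1. The log2 fold change was -1.40 ± 0.43 (limma adjusted p = 0.882). Trpm5, by contrast, was higher with odor in each genotype. The Chat to Trpm5 ratio of levels was 0.31 to 0.48 in the odor libraries and 1.78 to 2.70 in the water libraries. This ratio is made of the values above, with 3 to 7 Chat reads with odor, and is no separate result.

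**Figure D2:**
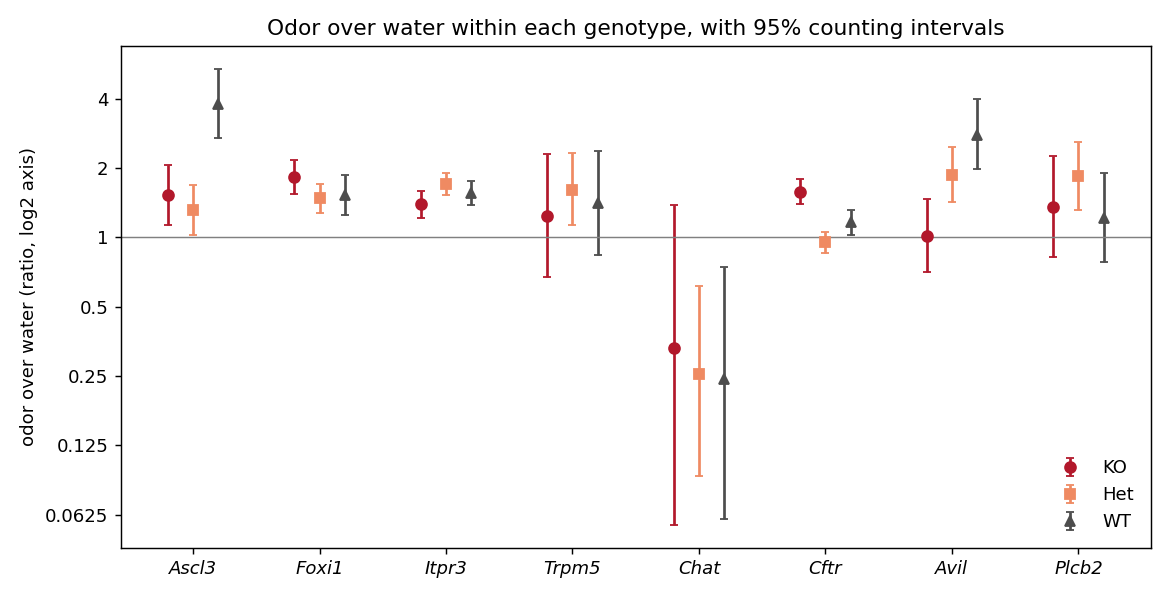
Ratio of the odor to the water library within each genotype for the 8 genes (log2 axis), with exact 95% intervals that cover counting error only. Chat lies below 1 in all 3 genotypes, at 0.24 to 0.33, Cftr lies at 0.95 in Het, and the WT ratio of Ascl3, 3.80, is the highest of the 24.

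A bulk library cannot tell fewer cells of a type from less RNA per cell. Markers of neighbouring cells were counted in the same libraries. Of 15 sustentacular (supporting) cell markers, led in level by Cbr2, Cyp2g1 and Sec14l3, 13 had a positive log2 fold change and 2 a negative one, with a median of 0.25. In 6 of the 15 (40.0%) all 3 odor libraries lay above all 3 water libraries, the separation seen in 3 of the 8 members (37.5%) and 7.77% of all genes, and in 2 of 6 gland markers. The summed level of the sustentacular markers was 42532 to 52825 with odor and 35799 to 45339 with water. All 6 listed Bowman gland markers (led by Obp1a, Lcn3 and Muc5b) had a positive log2 fold change with a median of 0.62, but their sums ranged from 21013 to 67335 with odor and from 16842 to 67682 with water. Granulocyte and blood markers (led by Hbb-b1, Hba-a1 and S100a8) had 9 of 13 positive with a median of 0.53, and summed levels of 31915 to 66592 with odor and 37541 to 52582 with water. Mature neuron markers (led by Stoml3, Omp and Gnal) had 4 of 12 positive, with a median of -0.16, and sums of 5860 to 27388 with odor and 10308 to 24353 with water. Horizontal basal cell markers had 5 of 7 positive (median 0.28), immature neuron markers (led by Stmn2, Tubb3 and Dpysl3) 2 of 8 (-0.07), and ciliated cell markers (led by Sec14l3, Rsph1 and Foxj1) 2 of 7 (-0.11). As the mOSN values below show, this last list does not mark respiratory ciliated cells alone. None of the genes on all these lists passed limma's test. The part of these cells in the members' odor values was not tested.

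One library stands low for the members. WT water was the lowest of the 6 libraries for 5 of them, Ascl3, Foxi1, Itpr3, Cftr and Avil, and it is the lowest for 17.2% of all genes tested. The 8 levels summed to 207 in WT water, against 324 in KO water, 339 in Het water and 453 to 513 in the odor libraries, a sum carried mostly by Ascl3 and Foxi1. At the other end, Het odor was the highest library for Itpr3, Trpm5, Avil and Plcb2, and for 30.6% of genes.

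The second comparison asks what the loss of Dnmt3a left changed in MOE, with treatment as a block. The members split evenly between KO and WT, with 4 higher, 4 lower (48.5% and 51.5% of all genes) and a median log2 fold change of -0.0016, against -0.0083 over all genes tested. Foxi1 and Cftr were higher in KO in both treatments, as 20.2% of genes were, and Trpm5 and Chat lower in both, as 21.0% were. None passed the test, and 0.0% of genes were called in either direction (limma, adjusted p = 1.00 for each member). Before adjustment limma put 1.27% of genes higher and 0.966% lower at 0.05, and voom, a second model run on the recovered reads, called none of the members.

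Foxi1 alone of the 8 was below 0.05 before adjustment, and it was higher in KO. Its levels were 196 with odor and 107 with water in KO, against 106 with odor and 69.4 with water in WT. Both KO libraries lay above both WT libraries, as in 12.4% of genes, though KO water (106.9) barely passed WT odor (106.1). The KO to WT ratio was 1.84 with odor (1.57 to 2.17) and 1.54 with water (1.25 to 1.90), and the log2 fold change was 0.75 ± 0.19 (limma adjusted p = 1.00). Cftr showed the same separation, at 28.6 and 18.1 in KO against 18.0 and 15.5 in WT with odor and water, and a log2 fold change of 0.43 ± 0.33.

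Ascl3 gave opposite directions in the 2 treatments. Its KO to WT ratio was 0.88 with odor (0.70 to 1.12) and 2.20 with water (1.50 to 3.26), where WT water was the low library. Avil did likewise, at 0.61 with odor (0.45 to 0.83) and 1.68 with water (1.13 to 2.52). Itpr3 stayed near 1, at 0.92 with odor (0.82 to 1.03) and 1.03 with water (0.89 to 1.18). Trpm5 and Plcb2 ratios lay between 0.84 and 1.04, with counting intervals that all include 1, and Chat ratios were 0.86 with odor and 0.63 with water on 3 to 17 reads.

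**Figure D3:**
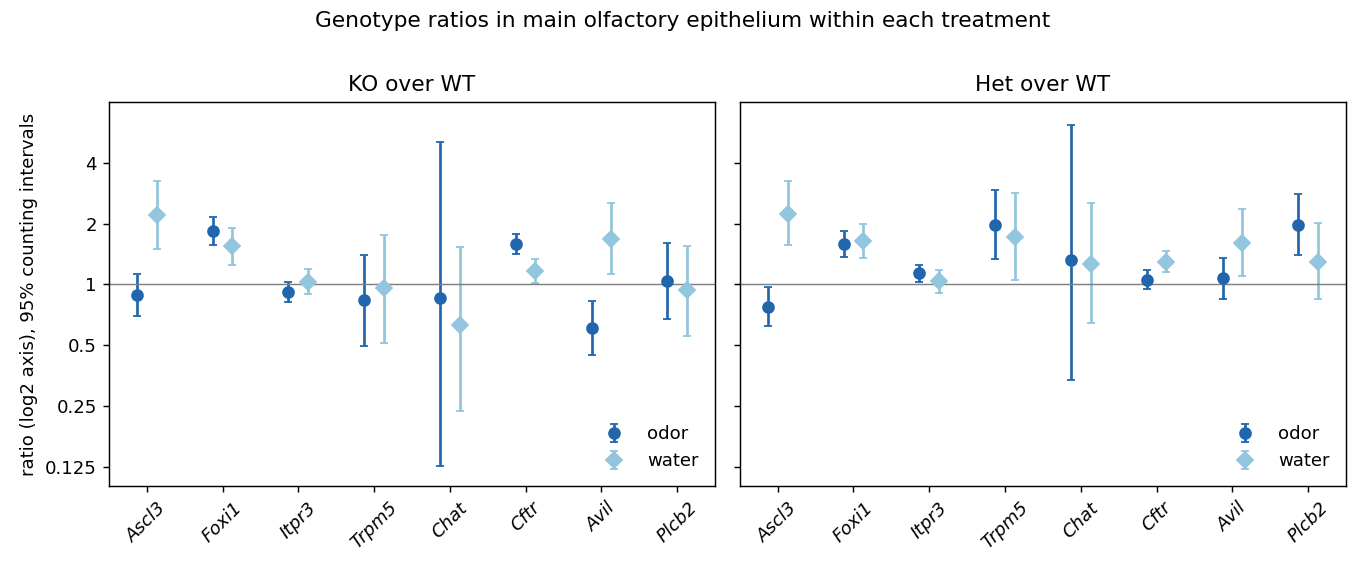
Ratios of KO to WT (left) and Het to WT (right) in whole MOE for the 8 genes, with odor and with water (log2 axis), and exact 95% intervals that cover counting error only. Foxi1 lies above 1 in all 4 comparisons, at 1.54 to 1.84, and Ascl3 lies below 1 with odor and above 2 with water in both genotypes.

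Between Het and WT all 8 members had a positive log2 fold change, as 52.6% of genes did (47.4% negative), with a median of 0.38, against 0.025 over all genes tested. In 7 of the 8, all but Ascl3, Het was higher than WT in both treatments, as in 30.1% of genes. No member was lower in both, as 28.7% of genes were. Both Het libraries lay above both WT libraries for Foxi1, Trpm5, Cftr and Plcb2, as in 19.0% of genes. None passed limma's test, which called 0.0% of genes in either direction. Before adjustment, limma put 2.71% of genes higher and 3.99% lower at 0.05, and Foxi1 was the only member among them.

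Foxi1 was at 168 with odor and 113 with water in Het, against 106 with odor and 69.4 with water in WT, and its log2 fold change was 0.68 ± 0.19 (limma adjusted p = 0.706). Trpm5 was at 3.28 and 2.03 in Het, against 1.66 and 1.18 in WT, with odor and water, and its log2 fold change was 0.70 ± 0.52. For Plcb2 the levels were 5.55 and 3.02 in Het, against 2.83 and 2.33 in WT, and the log2 fold change was 0.59 ± 0.48. Ascl3 was lower in Het with odor, 178 against 230.1 in WT, and higher with water, 136 against 60.6 in WT. Het and KO were set against the same 2 WT libraries, so these results are not independent of those for KO.

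Markers of other cells also differed in level between the Het and WT libraries, though none passed limma's test. All 12 mature neuron markers had lower values in Het, with a median log2 fold change of -1.13, and summed to 5860 to 10308 in Het against 18355 to 24353 in WT. Granulocyte and blood markers had 11 of 13 higher in Het, with a median of 0.53. The sustentacular markers were evenly split, with 7 higher, 8 lower and a median of -0.001. The part of these differences in the Het values of the members was not tested.

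The third comparison asks whether odor acted differently in KO than in WT and Het. None of the 8 passed (limma with 1 residual degree of freedom, lowest adjusted p = 0.781), where 0.0% of genes were called higher or lower. No member was below 0.05 before adjustment, as 3.75% of genes were with a larger and 3.36% with a smaller value in KO. Avil had the largest difference of the 8, with log2 odor differences of 0.02 in KO, 0.87 in Het and 1.42 in WT, which left -1.12 ± 0.66 for KO against the other two (adjusted p = 0.781). Cftr lay the other way, with 0.65 in KO, -0.07 in Het and 0.21 in WT, which left 0.58 ± 0.56 (adjusted p = 0.868).

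Likeness was measured as the root mean square distance between log2 profiles over the 6 MOE libraries, each centred on its own mean. Trpm5 and Plcb2, partners in one signalling chain, lay 0.118 apart. Among the other 14601 genes tested, Plcb2 was the 14th nearest to Trpm5, and Trpm5 the 21st nearest to Plcb2. The 4 nearest to Trpm5 were Ethe1, Mybl2, Pygb and Ddx54, at 0.092 to 0.101. Among the other members, the nearest to Ascl3 was Avil, at rank 119 and 0.34, the nearest to Foxi1 was Cftr, at rank 174 and 0.30, and the nearest to Avil was Itpr3, at rank 291 and 0.28. Itpr3 and Plcb2 lay 0.25 apart. Chat stood apart from every other member, at 0.92 to 1.30. Nearest to Ascl3 were Mylk3, Slc12a3, Naprt1, Ovol2 and Itgb2l (0.148 to 0.201), and nearest to Chat were Smc1b, Actr6, Haus1, Nrip2 and Pde6c (0.218 to 0.299). The 6 points of a profile share their libraries, and the low reads of Trpm5, Plcb2 and Chat limit these ranks.

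**Figure D4:**
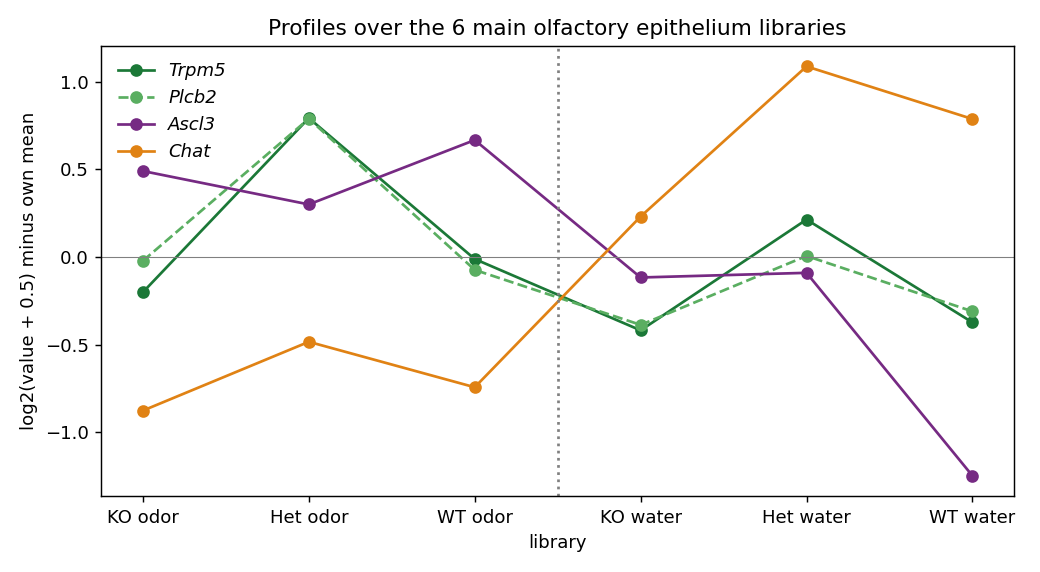
Centred log2 profiles of Trpm5, Plcb2, Ascl3 and Chat over the 6 whole MOE libraries, odor libraries left of the dotted line and water libraries right of it. Trpm5 and Plcb2 run together with a peak in Het odor, Ascl3 drops in WT water, and Chat is low in all 3 odor libraries.

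Sorted mOSN are neurons, and the table lists 6 of the 8 genes in them, as the authors' pooled values with no replicate and no recoverable reads. Foxi1 was at 38.0 in KO, 25.5 in Het and 23.6 in WT. Itpr3 was at 33.1 in KO, 21.1 in Het and 11.5 in WT. Avil was at 14.1 in KO, 14.8 in Het and 8.82 in WT. Plcb2 was at 8.79 in KO, 3.39 in Het and 1.40 in WT, Trpm5 was at 6.48 in KO, 2.64 in Het and 3.24 in WT, and Cftr was at 5.77 in KO, 2.70 in Het and 3.11 in WT. Beside MOE water of the same genotype, Foxi1, Itpr3 and Cftr were lower in mOSN, at 0.13 to 0.67 times. Trpm5, at 1.30 to 5.72 times, and Avil, at 1.27 to 1.39 times, were higher in each genotype. Plcb2 was higher in KO and Het and lower in WT, at 0.60 times. MOE and mOSN values were scaled separately, and these ratios were not tested.

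All 6 were higher in KO than in WT, as 42.8% of the listed genes were. Plcb2, at 6.27 times, and Itpr3, at 2.88 times, were at least 2-fold higher, as in 19.3% of genes, and Trpm5, at 1.9996 times, was just short. None was 2-fold lower, as in 3.07% of genes. In Het 4 of the 6 were higher than WT, as 47.6% of genes were, and Plcb2, at 2.42 times, was the only one at 2-fold or more, as in 8.47% of genes, while none was 2-fold lower (3.07%). Low values ran higher in the KO column as a whole: its 10th percentile was 5.97, against 3.42 in Het and 2.49 in WT. Genes under 2 in WT had a median KO to WT ratio of 3.21, genes from 2 to 5 had 2.46, genes from 5 to 10 had 1.63, genes from 10 to 20 had 1.08 and genes from 20 to 50 had 0.85. Against the median of its own class, Plcb2 was higher (6.27 and 3.21), as were Itpr3 (2.88 and 1.08) and Foxi1 (1.61 and 0.85). Trpm5 (1.9996 and 2.46), Cftr (1.86 and 2.46) and Avil (1.60 and 1.63) were at or below it.

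Ranks within a column do not depend on its scale. Itpr3 stood at percentile 50.9 in KO, 39.6 in Het and 31.2 in WT, and Plcb2 at 17.6 in KO, 9.94 in Het and 3.51 in WT. Foxi1 was at 54.4 in KO, 43.1 in Het and 41.6 in WT, and Avil at 28.5 in KO, 33.1 in Het and 27.4 in WT. Trpm5 ranked lower in KO, at 11.4, than in WT, at 13.4, and so did Cftr, at 9.48 in KO and 12.9 in WT. Genes of the cell marker lists also differed between KO and WT mOSN, in both directions. All 7 horizontal basal cell markers (led in MOE by Krt5, Krt14 and Trp63) were at least 2-fold above WT, and their WT values all lay below 5, where 82.0% of genes under 2 and 65.6% of genes from 2 to 5 were also 2-fold higher in KO. They summed to 110.0 in KO, 27.1 in Het and 17.1 in WT. Sustentacular markers were higher in 10 of 14, lower in 4, and summed to 2229 in KO, 1872 in Het and 1347 in WT. Most of that sum came from Ugt2a1 (780 in KO, 429 in Het, 175 in WT) and Fezf1 (763, 800 and 593). Fezf1 was at 508 to 772 in MOE, so its level here is not that of supporting cells alone. The sustentacular markers that led the list in MOE were lower in KO than in WT. Cbr2 was at 55.3 in KO and 56.2 in WT, Cyp2g1 at 80.9 and 132, and Sec14l3 at 46.7 and 134. Respiratory ciliated cell markers were lower in KO in 6 of 7, with a median log2 ratio of -0.52. Of this list, Dynlrb2 (872 to 1442 in mOSN, 256 to 429 in MOE), Ccdc39 (232 to 441, 24.2 to 106) and Tekt1 were higher in mOSN than in MOE. Foxj1 and Rsph1 overlapped, and Fam183b and Sec14l3, the latter also on the sustentacular list, were lower in mOSN. The list therefore does not mark respiratory ciliated cells alone here. All 12 mature neuron markers were lower in KO, with a median log2 ratio of -0.67, where 42.8% of all listed genes were higher. Their WT values all lay above 100, a class in which the median KO to WT ratio of all genes was 0.75. The part of other cells or of the library kit in the mOSN values was not tested.

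**Figure D5:**
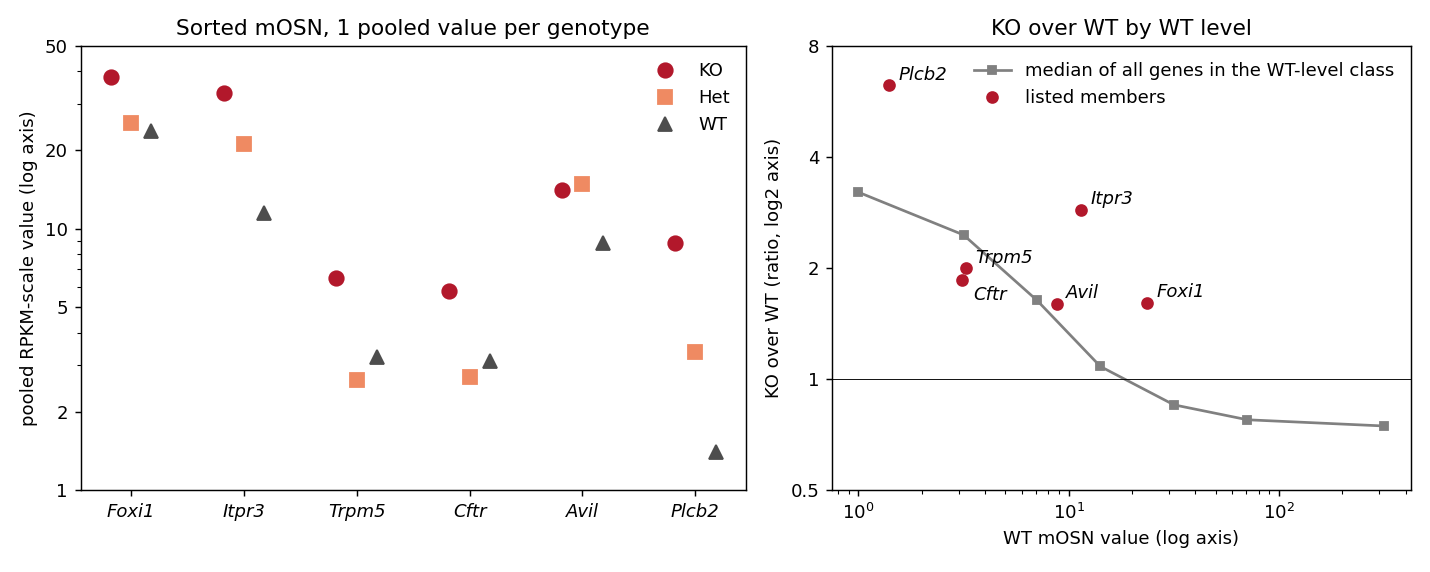
Left, pooled RPKM-scale values of the 6 listed genes in sorted KO, Het and WT mOSN (log axis, no replicates). Right, KO to WT ratio of each gene against its WT value, with the median ratio of all genes in 7 classes of WT value in grey; Plcb2, Itpr3 and Foxi1 lie clearly above the grey line and the other 3 near or below it.

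Wider lists of the same pathways were then counted. Of 34 taste-like chemosensory and tuft cell genes, 21 were listed in MOE, and Gnat3, the taste G protein, was among those not listed in either table. With odor 14 of the 21 had a positive log2 fold change and 7 a negative one, with a median of 0.10. KO over WT gave 14 positive and 7 negative with a median of 0.19, and Het over WT gave 18 positive and 3 negative with a median of 0.55. None passed the test in any comparison. Its highest genes were Krt18, Gng13 and Dclk1. Krt18, a keratin, had a log2 fold change with odor of 0.72, and Krt8, a keratin among the sustentacular markers, had 0.74. Gng13, a G protein subunit also used by olfactory neurons, had -0.12. Dclk1, a kinase used as a tuft cell marker, had -0.0051. Dclk1 was also listed in sorted mOSN, at 62.3 in KO, 59.9 in Het and 55.1 in WT, so its MOE level is not that of tuft cells alone. Pou2f3, the POU factor that tuft cells need, was at 4.53 in KO, 3.95 in Het and 5.12 in WT with odor, against 1.41 to 4.65 over the 3 water libraries, on 14 to 50 reads, and the groups overlapped.

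Of 21 ionocyte and Ascl3-lineage genes, 20 were listed in MOE. With odor 15 of them had a positive log2 fold change and 5 a negative one, with a median of 0.13. KO over WT likewise gave 15 positive and 5 negative, with a median of 0.27, and Het over WT 16 and 4, with a median of 0.35. None passed. The highest were Coch (cochlin), with a log2 fold change with odor of 0.51, Atp6v1b1, a proton pump subunit of ionocytes, with 0.13, and Slc12a2, a chloride cotransporter, with 0.18. Between KO and WT these 3 had log2 fold changes of 0.52, 0.49 and -0.03. Slc12a2 was also listed in sorted mOSN, at 891 in KO, 1120 in Het and 1128 in WT, so its MOE level is not that of ionocytes alone.

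Of the 8 listed acetylcholine genes of 14, only the receptor gene Chrm2 shared the direction of Chat, with a log2 fold change with odor of -0.98 ± 1.16 (SE). With odor 7 of the 8 had a positive log2 fold change, with a median of 0.21, and none passed. The highest were the receptor genes Chrnb2 (0.14), Chrm3 (0.49) and Chrna7 (0.14). Slc5a7, which takes up choline, and Slc18a3, which loads acetylcholine into vesicles, were not listed in either table. Among 5 listed markers of efferent and peripheral neurons or muscle, led by Prph, Isl1 and Acta1, 3 were higher and 2 lower with odor. Of the 6 relatives of Plcb2, Itpr3 or Trpm5, 5 were higher and 1 lower with odor (median 0.20). They were led by the phospholipases Plcb3 (0.13) and Plcb4 (0.15), with Itpr2 given above. No gene of these wider lists reached 2-fold in the same direction in all 3 genotypes with odor, or in both treatments between KO and WT. Between Het and WT, 2 of the 21 tuft cell genes, Spib and Hmx2, were at least 2-fold higher in both treatments, as 1.19% of all genes were. So was 1 of 13 granulocyte and blood markers, Elane, and 5 of 12 mature neuron markers were at least 2-fold lower in both, as 1.45% of all genes were.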

How the data were processed

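Ribosomal RNA-depleted libraries were sequenced by the authors from whole MOE (6 libraries) and sorted mOSN (6 libraries). The other 21 samples of the series were not analysed here. The deposited tables hold RPKM-scale values (reads scaled per gene length and per library) that the authors made. The submitters' processing notes name STAR 2.3.0, featureCounts, Bowtie2 2.1, DESeq and Picard 1.64, and the builds mm9 and NCBIM37; their order and the scaling formula are not given in the sources used here. The MOE values could be written as a whole number of reads, scaled per library and per length, for 100% of 14613 genes (relative tolerance 1e-05), so reads were recovered; where the 6 counts of a gene have a common divisor, they may be that many times too low. Depth could not be recovered for the pooled mOSN values, and the tests planned for single mOSN libraries were replaced by ratios with a 2-fold rule; 7 rows of that table without values were left out.

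MOE values were tested as log2(value + 0.5), which understates the change of low genes, for the 14602 genes that reached 0.5 in 2 or more libraries, with limma 3.58.1 in R 4.3.3 (empirical Bayes with trend, two-sided, Benjamini-Hochberg over all genes, threshold 0.05). All 8 members passed the filter. Residual degrees of freedom were 2, and 1 for the odor effect in KO, which takes WT and Het to respond alike. With 1 library per genotype and treatment, the spread behind each p-value is how far the odor effect differs between genotypes. Real differences between genotypes, between animals and between libraries all enter it. The labels name no separate animals per library, so these cannot be told apart. Ratios of 2 libraries carry exact 95% (Clopper-Pearson) counting intervals, which cover counting error only. The fit was tested on simulated data first. Other lists' genes were named if past the test or among the 3 highest in MOE. They were also named if 2-fold in 1 direction with odor in all genotypes or between KO and WT in both treatments. Pou2f3, Itpr1, Krt8, Spib, Hmx2, Elane, the genes not listed and those that overlap members were named outside these rules. So were Chrm2, Ugt2a1, Fezf1, Dynlrb2, Ccdc39, Tekt1 and Fam183b. For likeness the 5 nearest genes to Trpm5, Ascl3 and Chat were named, of which 1 is not reported here. The members and lists were chosen with earlier results of these data known. Alternatives were other pseudocounts, filters and scalings, no trend, voom on recovered reads, no block and libraries left out.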

Additional observations from a re-analysis of the deposited data

Results flagged for a closer look

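Ascl3, Avil, Itpr3 and Plcb2 had KO to WT differences of opposite sign with odor and with water in MOE, each on 1 library per group. Counting intervals of the KO to WT ratio included 1 in both treatments for Itpr3 and Plcb2, and with odor for Ascl3. For Ascl3 the log2 difference between KO and WT was lower with odor than with water by -1.31, and for Avil by -1.40, with opposite signs in the 2 treatments. For Itpr3 the same value was -0.16 and for Plcb2 0.13. The odor effect in KO, tested against WT and Het together, did not pass for any of them (limma adjusted p = 0.897 for Ascl3, 0.781 for Avil, 0.931 for Itpr3 and 0.987 for Plcb2). Ascl3 also turned direction between Het and WT, with a difference of -1.53 between odor and water, and this was not tested. In Cftr the odor over water log2 difference was -0.069 in Het and positive in KO and WT, and this difference was not tested either.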

How the results depend on the processing

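No member passed 0.05 in any of the 4 MOE comparisons under any alternative, all of which were planned. The lowest adjusted p of a member was 0.502 for odor, 0.633 for KO, 0.448 for Het and 0.761 for the odor effect in KO. Of 416 recomputed member values, 16 changed sign and none of these was in the odor comparison. With voom, odor over water was smaller than in the main fit for Ascl3 (0.79), Foxi1 (0.57), Itpr3 (0.53), Cftr (0.15) and Avil (0.74). It was larger in size for Trpm5 (0.43), Plcb2 (0.49) and Chat (-1.91). KO over WT changed sign with voom for Avil (-0.14) and Plcb2 (0.023). With libraries left out in turn, KO over WT ran from -0.23 to 1.19 for Ascl3, -0.16 to 0.072 for Itpr3, -0.24 to 0.0089 for Trpm5, -0.55 to 0.57 for Avil and -0.18 to 0.16 for Plcb2. Het over WT changed sign with quantile normalization for Chat (-0.014), and with libraries left out ran from -0.31 to 1.10 for Ascl3, -0.031 to 0.47 for Cftr and -0.11 to 0.86 for Avil. The odor effect in KO ran from -1.31 to 0.22 for Ascl3 and -0.42 to 0.13 for Plcb2 with a pair left out. Over all genes, 2 were called for odor. That count was 1 with median-ratio scaling, 0 without the trend, 6 with voom, 1 without genotype as a block, and 0 to 4 with a genotype pair left out. Het over WT called 0 genes, and 0 to 27 with a library left out, where 27 came without WT water, which leaves WT odor alone and assumed to vary like the rest. The cause of these differences was not tested.

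Odor and water libraries were matched by genotype in MOE. For the replicate numbers, which only the mOSN labels give, no paired analysis was possible because the mOSN table holds 1 pooled value per genotype and the MOE labels carry none. Depth limits Chat (3 to 22 reads), Trpm5 and Plcb2, and 1 library per genotype and treatment limits every test.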
